A study of Mus musculus with 2 samples.

Results

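The cells described here are neurons of the adult mouse hippocampus that carried RNA of at least 1 of 5 activity-induced genes, Fos, Fosb, Arc, Npas4 and Egr3. They were chosen by these values. A cell barcode of library 1 was a member if it had at least 1000 unique molecular identifiers (UMIs, which count captured RNA molecules), at least 500 detected genes, at most 10% UMIs of mitochondrially encoded genes, at least 1.5% UMIs of the neuronal long non-coding RNAs Meg3 and Snhg11, no UMI of the microglial genes P2ry12, Cx3cr1 and Csf1r, and at least 1 UMI of the 5 genes. Of 12306 barcodes in library 1, 4284 passed the neuron criteria and 936 of these were members, 21.8% of the neurons (exact binomial 95% interval 20.6 to 23.1%). The 2 libraries together hold 18754 barcodes. The members were set against 936 of the 3348 neurons of library 1 with no UMI of the 5 genes, each paired with the unused neuron of nearest UMI total. The median was 2162.5 UMIs in the members and 2162.5 UMIs in these like-depth neurons, against 1747.5 UMIs in all neurons with none.

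Both libraries were made with a droplet-based 3′ kit from wild-type C57BL/6 hippocampi at 10 weeks of age, male according to the series' design text, and each is a pool of 3 mice. The series compares enzymatic digestion (30 min at 37 °C) with mechanical dissociation at 4 °C, but no label ties either library to a treatment, and the file names of library 2 carry another sample number than its title. Neither library was therefore assigned to a treatment, and library 2 had only 22 neurons under the same criteria. With a single pool and no replicate of it, no test was made. All intervals below cover counting error only, and cells are not replicates of a condition. Intervals of ratios and of summed levels pool the UMIs of all cells, so they also leave out variation among cells.

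Immediate early genes are switched on within minutes when synaptic input raises calcium in a neuron, without new protein being made first. Calcium entering through NMDA receptors and voltage-gated channels activates kinases that phosphorylate CREB and the partners of SRF, which wait at the promoters of these genes. The first wave encodes transcription factors and feedback regulators, and a later wave encodes secreted and synaptic proteins. In the hippocampus these RNAs are widely used to mark neurons that were recently active, and tissue dissociation itself is known to induce several of them.

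Of the 5 genes, Arc (chromosome 15, 74669083 to 74672570, minus strand, GRCm38), whose product regulates AMPA receptor endocytosis at synapses, gave the most RNA. Its 818 UMIs came from 557 of the 936 members (59.5%), at 369 CPM (UMIs of a gene per 1000000 UMIs, summed over the members). Npas4, a neuron-specific transcription factor of the bHLH-PAS family induced by calcium (chromosome 19, 4984355 to 4990316, minus strand), had 469 UMIs in 307 members and 212 CPM. Egr3, a zinc finger factor (chromosome 14, 70077203 to 70082614, plus strand), had 329 UMIs in 254 members and 148 CPM. Arc was detected in more members than any other of the 5 genes, and it was the sole one of them in 356 cells.

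The AP-1 subunit genes were rarer. Fos (chromosome 12, 85473890 to 85477273, plus strand) had 186 UMIs in 138 members at 83.9 CPM. Fosb (chromosome 7, 19302696 to 19310051, minus strand) had 109 UMIs in 71 members at 49.2 CPM. Of the 5 genes, 41 members had Fos alone and 13 had Fosb alone. These levels are a description of how the members were chosen and support nothing by themselves.

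Most members sat near the threshold of the rule. In 570 members (60.9%) the 5 genes together had 1 UMI, in 163 they had 2, in 126 they had 3 or 4, and in 77 they had 5 or more, with a maximum of 20 in a cell. A single gene of the 5 was detected in 680 members (72.6%), at least 2 genes in 256 (27.4%), and all 5 in 9. Just outside the neuron criterion, 24 of 558 barcodes with a Meg3 and Snhg11 share of 1 to 1.5% had a UMI of the 5 genes (4.30%), and just inside it, 19 of 296 with a share of 1.5 to 2% (6.42%).

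Detection depended on depth. A UMI of the 5 genes was found in 10.9% of neurons with 1000 to 1500 UMIs and in 54.1% of the 37 neurons with at least 5000 UMIs. Had every cell been read to 1000 UMIs, the expected share over all neurons was 13.5%. Glial cells of the same library gave a background, in which free RNA, doublets and RNA made by the glia themselves cannot be told apart; glia can express Fos, Fosb and Egr3 but should lack Arc and Npas4. Among cells gated on astrocyte markers the share was 3.70% (13 of 351 cells, median depth 1174 UMIs), among those gated on oligodendrocyte markers 9.47% (18 of 190, 1415 UMIs), and among those gated on microglial markers 3.12% (26 of 834, 2267 UMIs). At 1000 UMIs the 13.5% of neurons compared with 2.33%, 4.50% and 1.60% of these gates. Arc was found in 557 of the 4284 neurons, against 1.71% of the astrocyte gate, 6.32% of the oligodendrocyte gate and 1.08% of the microglia gate, and Npas4 in 307 of the 4284 neurons (7.17%), against 0.285%, 0.526% and 0.480% of these gates. The part of free RNA in the members with a single UMI was not tested.

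The neurons were clustered without the activity, stress and gate genes, and clusters were named from marker lists. Cells of CA1-like clusters had a UMI of the 5 genes in 29.0% (322 of 1112, interval 26.3 to 31.7%), CA3-like cells in 20.4% (113 of 553, 17.1 to 24.0%), GABAergic-like cells in 10.9% (37 of 338, 7.83 to 14.8%) and dentate-like cells in 8.10% (47 of 580, 6.01 to 10.6%). At 1000 UMIs per cell the shares were 18.3%, 8.87%, 6.38% and 4.82%. The CA1-like share was the highest of the named classes on both scales, but some unnamed clusters were higher. With all UMIs an unnamed cluster of 238 neurons was at 30.3%. At 1000 UMIs the unnamed clusters led by Ctgf and by Pcdh11x were at 22.2% and 21.7%. The 2 CA1-like clusters were at 24.1% and 9.88% at 1000 UMIs. CA3-like cells were the deepest, with a median of 2515 UMIs. The GABAergic-like interval lies above those of the astrocyte gate (1.99 to 6.25%) and the microglia gate (2.05 to 4.53%) and overlaps that of the oligodendrocyte gate (5.71 to 14.6%). The dentate-like interval lies above that of the microglia gate and overlaps the other two. The 2 GABAergic-like clusters were unlike each other: the cells of the one led by Zic1 and Prkcd had a UMI of the 5 genes in 18.1% (25 of 138, 12.1 to 25.6%), and those of the one led by Dlx6os1, Adarb2 and Sst in 6.00% (12 of 200, 3.14 to 10.2%).

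**Figure D1:**
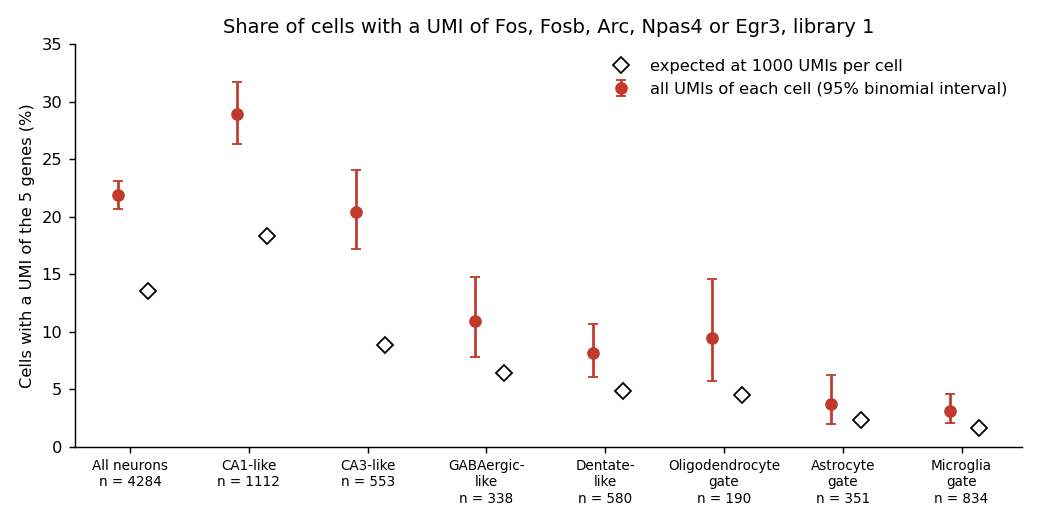
Share of cells with at least 1 UMI of Fos, Fosb, Arc, Npas4 or Egr3 in library 1 (vertical axis, %), for all neurons, 4 neuron classes and 3 glial gates (horizontal axis, with the number of cells). Filled points use all UMIs with 95% binomial intervals, and open diamonds give the expected share at 1000 UMIs per cell: 18.3% in CA1-like cells, against 1.60% in the microglia gate.

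The classes also differed in which genes they carried. Arc was detected in 19.9% of CA1-like, 11.6% of CA3-like, 5.03% of GABAergic-like and 2.93% of dentate-like cells. Fos was detected in 3.60% of CA1-like and 3.25% of GABAergic-like cells, but in 4 of 553 CA3-like cells (0.723%) and 3 of 580 dentate-like cells (0.517%). In the dentate-like class Egr3 was the most frequent of the 5, in 24 cells (4.14%). The Fos shares of CA3-like and dentate-like cells were within or below the 0.526 to 1.42% of the glial gates. The Arc shares of GABAergic-like and dentate-like cells were below the 6.32% of the oligodendrocyte gate. With all UMIs, both classes were above the 1.71% of the astrocyte gate and the 1.08% of the microglia gate. The Arc interval of the microglia gate (0.495 to 2.04%) lay below the GABAergic-like one (2.96 to 7.93%) and overlapped the dentate-like one (1.72 to 4.65%). The part of background in these Fos and Arc shares was not tested. The 2 CA1-like clusters were unlike each other, with 37.0% in the one of 659 cells and 17.2% in the one of 453 cells, at medians of 1967 and 1942 UMIs. A further 1423 neurons lay in 10 unnamed clusters, with 349 members (24.5%); among these, a cluster led by choroid plexus markers held 6 members in 23 cells and one led by microglial markers 4 in 17. The remaining gated neurons lay in an oligodendrocyte-like cluster, where 45 of 171 had a UMI of the 5 genes (26.3%, 19.9 to 33.6%), and an astrocyte-like cluster, where 23 of 107 had one (21.5%, 14.1 to 30.5%).

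Although 680 members had a single gene of the 5, neurons with 1 of the genes more often had a second than like-depth neurons without it. These are again the values that chose the members and are given as a description. Among the 138 neurons with Fos RNA, 29 (21.0%, interval 14.5 to 28.8%) also had Fosb, against 2 of 138 like-depth neurons without Fos (1.45%, 0.176 to 5.14%). Arc was present in 48.6% of the neurons with Fos, against 13.8% of like-depth neurons without it. Npas4 was present in 44.2% of the neurons with Fos, against 6.52% of those without. Fosb marked the narrowest group: of 71 neurons with Fosb, 56.3% had Arc, 56.3% had Npas4 and 40.8% had Fos, against 8.45%, 4.23% and 5.63% of like-depth neurons without Fosb. For the broadest gene, Arc, the second genes were rarer, with Npas4 in 21.4% of 557 neurons with Arc, against 6.64% of like-depth neurons without it. The share was higher in the carriers in each of the 20 ordered pairs.

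**Figure D2:**
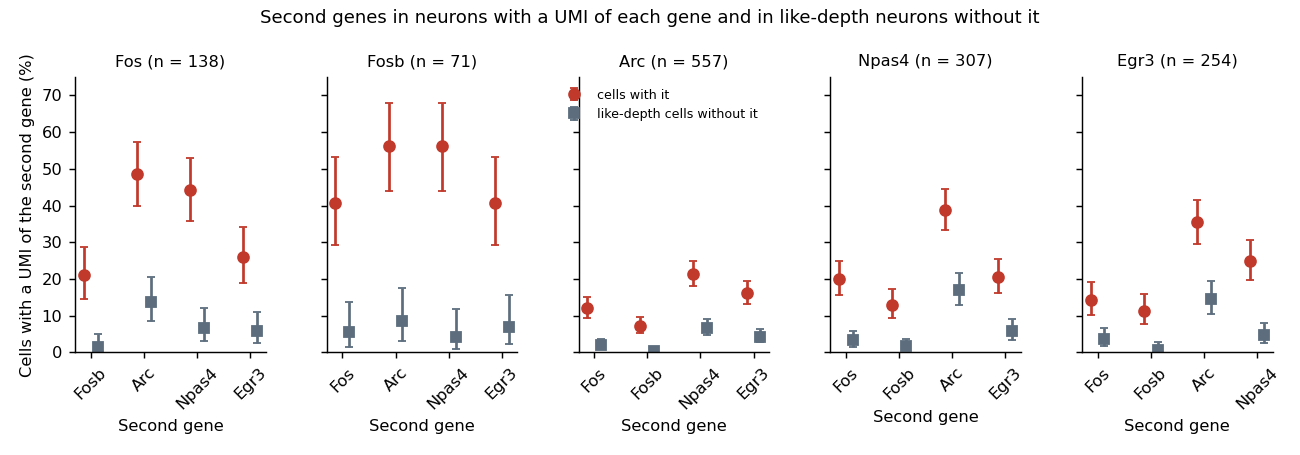
Each panel takes the neurons with a UMI of the gene in its title (circles) and an equal number of like-depth neurons without it (squares), and plots the share with a UMI of each of the other genes (vertical axis, %; bars are exact binomial 95% intervals). The circles lie above the squares in each pair, from 7.18% against 0.359% (Fosb by Arc) to 56.3% against 4.23% (Npas4 by Fosb).

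Other early transcription factors, which the rule did not use, were more abundant in the members. A list of 24 such genes summed to 1211 CPM in the members (Poisson interval 1165 to 1257) and 474 CPM in like-depth neurons (445 to 503), a ratio of 2.56 (2.38 to 2.75). Of its 24 genes, 14 had at least 50 UMIs in both sets together; of these, 8 were at least 2-fold higher in the members and none was 2-fold lower. Over all 9921 genes with that many UMIs, 39 (0.393%) were at least 2-fold higher and 41 (0.413%) at least 2-fold lower, 80 (0.806%) in either direction. The median fold of the 14 was 2.11, beside 0.973 over all genes tested.

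Egr4 stood first. This zinc finger factor of the Egr family had 316 UMIs in 175 members, against 25 UMIs in 22 like-depth neurons, a ratio of 12.6 (8.35 to 19.7). Egr1, its best studied relative, had 287 UMIs in the members and 65 in like-depth neurons, a ratio of 4.39 (3.34 to 5.83). Junb, an AP-1 partner of the Fos proteins, had 236 CPM in the members and 52.7 CPM in like-depth neurons (ratio 4.49, 3.66 to 5.54), while Jun, the classical partner, had 55.1 CPM and 56.8 CPM (0.97, 0.749 to 1.25, and 1.07 with pairs taken within clusters, as described below). Jund, which neurons express at rest, was between them at 1.29. The Jun family was thus split, with Junb detected in 31.7% of members, against 10.6% of like-depth neurons, and Jun RNA nearly level.

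The orphan nuclear receptors were higher as well. Nr4a2 had 379 UMIs in the members and 96 in like-depth neurons (ratio 3.92, 3.13 to 4.96), Nr4a1 129 and 40 UMIs (3.20, 2.23 to 4.69) and Nr4a3 92 and 49 UMIs (1.87, 1.31 to 2.70). Ier2 had 58 UMIs in the members and 9 in like-depth neurons (6.40). Per1, a clock gene that CREB induces, had 259 and 118 UMIs (2.18, and 1.75 within clusters), and Fosl2, another Fos family member, 104 and 49 UMIs (2.11). Other early factors on the list were scarce: Atf3, Maff and Fosl1 had no UMI in the members, against 1, 3 and 1 UMIs in like-depth neurons, and Klf4 had 3 UMIs in the members and 8 in like-depth neurons. Klf6 and Klf10 had ratios of 0.93 and 0.96.

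**Figure D3:**
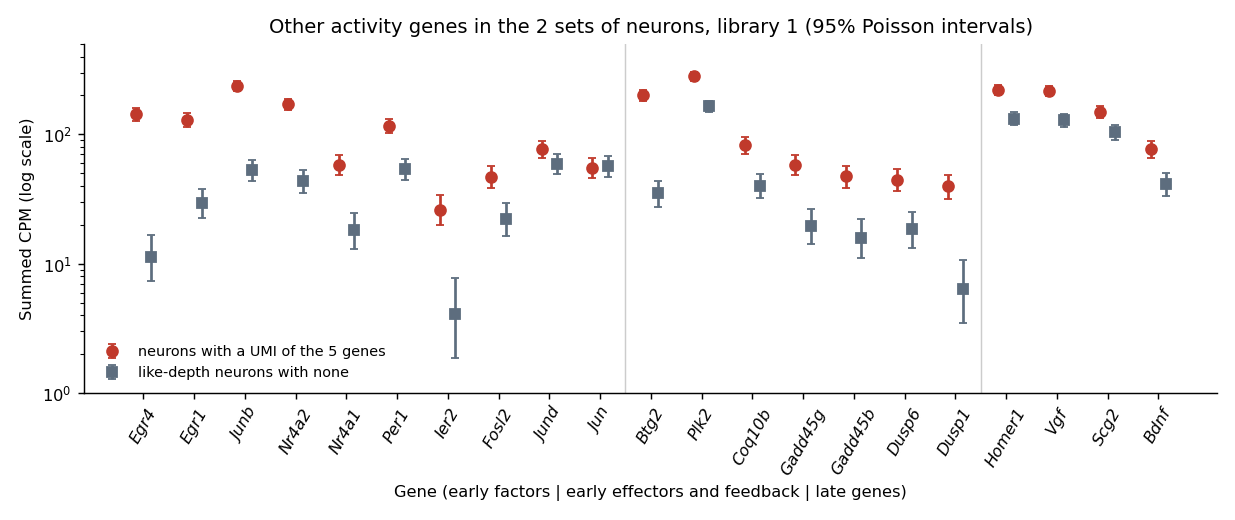
Summed CPM (vertical axis, log scale) of 21 activity genes in the 936 members (circles, left of each pair) and in 936 like-depth neurons with no UMI of the 5 genes (squares), with 95% Poisson intervals. Egr4 shows the widest gap, 143 against 11.4 CPM, and the Jun intervals overlap, at 55.1 against 56.8 CPM.

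Promoters of Fos, a gene of the rule, and of Egr4, Btg2 and Nr4a2, which the rule did not use, are shown. CREB, named above, binds the letters TGACGTCA (the cyclic AMP response element, CRE) or its half-site TGACG. Egr4, Btg2 and Nr4a2 were high together in the members, while the Fos level there follows from the rule. Each line gives the 250 bases before the RefSeq start (GRCm38.p6), in the direction of the gene, with each TGACG or its reverse complement CGTCA in capitals. They lie at chr12:85473640-85473889 (plus strand, Fos), chr6:85513590-85513839 (minus, Egr4), chr1:134079156-134079405 (minus, Btg2) and chr2:57124004-57124253 (minus, Nr4a2).
Fos: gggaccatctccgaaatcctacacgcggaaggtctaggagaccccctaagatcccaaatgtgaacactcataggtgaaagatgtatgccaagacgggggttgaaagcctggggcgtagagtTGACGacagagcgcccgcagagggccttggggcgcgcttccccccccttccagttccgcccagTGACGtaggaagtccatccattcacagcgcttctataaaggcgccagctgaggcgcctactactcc
Egr4: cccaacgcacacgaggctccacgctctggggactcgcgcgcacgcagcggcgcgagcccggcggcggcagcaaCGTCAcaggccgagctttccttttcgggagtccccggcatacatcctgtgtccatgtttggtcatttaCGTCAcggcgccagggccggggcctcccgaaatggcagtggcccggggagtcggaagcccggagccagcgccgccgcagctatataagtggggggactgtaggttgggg
Btg2: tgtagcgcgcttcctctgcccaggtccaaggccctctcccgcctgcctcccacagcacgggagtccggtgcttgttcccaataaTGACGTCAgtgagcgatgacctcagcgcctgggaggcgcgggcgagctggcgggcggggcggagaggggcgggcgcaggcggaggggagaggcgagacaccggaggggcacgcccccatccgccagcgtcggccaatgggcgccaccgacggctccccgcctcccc
Nr4a2: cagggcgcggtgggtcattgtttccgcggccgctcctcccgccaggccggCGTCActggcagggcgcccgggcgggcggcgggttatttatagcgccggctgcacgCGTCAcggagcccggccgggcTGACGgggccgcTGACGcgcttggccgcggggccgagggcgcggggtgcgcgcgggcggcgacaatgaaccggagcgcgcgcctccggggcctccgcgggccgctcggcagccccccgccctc
Fos and Egr4 each hold 2 half-sites, Nr4a2 holds 4, and in Btg2 both strands of 1 full TGACGTCA give the 2 that overlap. A half-site on either strand was present in 20 of 29 such windows of 19 listed early factor genes (69.0%) and in 12 of 27 windows of 21 effector genes (44.4%), beside 17.8% of all 32851 windows in the table; the full CRE was in 3.45%, 18.5% and 1.55%. A match is a string of letters and not a shown binding site.

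The early effectors and feedback regulators followed the factors at a smaller size. Their 26 genes summed to 1174 CPM in the members and 598 CPM in like-depth neurons, a ratio of 1.96 (1.84 to 2.10). Of the 15 with at least 50 UMIs, 8 were at least 2-fold higher and none 2-fold lower, beside the 0.393% and 0.413% of all genes tested, and their median fold was 2.03. Btg2, which restrains cell division and promotes mRNA deadenylation, had 443 UMIs in 216 members, against 77 UMIs in 67 like-depth neurons, a ratio of 5.72 (4.48 to 7.38). Dusp1, a phosphatase that switches off MAP kinases, had 88 and 14 UMIs (6.25, 3.53 to 11.9), and Dusp6, which is directed to ERK, 99 and 41 UMIs (2.40, and 1.97 within clusters). Trib1 had 60 UMIs in the members and 17 in like-depth neurons (3.51). Spry2, an inhibitor of growth factor signalling, had 56 and 16 UMIs (3.48, and 2.11 within clusters).

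Gadd45b and Gadd45g, which take part in stress responses and DNA demethylation, had the same ratio of 2.98, with 105 and 129 UMIs in the members, against 35 and 43 in like-depth neurons. Plk2, a kinase of homeostatic synaptic scaling, was the most abundant of the list at 282 CPM in the members and 164 CPM in like-depth neurons (1.72, 1.51 to 1.96). Coq10b stood at 2.05, and Rheb, an activator of mTORC1, and Sgk1 at 1.08 and 0.92. Zfp36, a prominent early responder in other cells, was rare, with 2 UMIs in the members and 3 in like-depth neurons. Other listed genes were past 2-fold at low counts. Cyr61 had 28 UMIs in the members and 3 in like-depth neurons (9.27, 2.86 to 47.7). Arl4d had 19 and 6 UMIs (3.15) and Sik1 17 and 5 UMIs (3.38).

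The late genes differed less. Their 25 genes summed to 2085 CPM in the members and 1670 CPM in like-depth neurons, a ratio of 1.25 (1.20 to 1.30). Of the 15 tested, 12 were higher in the members and 3 lower, and their median fold was 1.24, beside 0.973 over all genes tested. Only 1 was at least 2-fold higher, beside 0.393% of all genes tested. This was Pcsk1, a convertase that cuts neuropeptide precursors, with 36 UMIs in the members and 15 in like-depth neurons (2.38, and 1.68 within clusters). Cdkn1a, with too few UMIs to be among the 15, had 17 and 3 UMIs (5.63, 1.63 to 30.0). Bdnf, the neurotrophin, had 171 UMIs in the members and 91 in like-depth neurons (1.87, 1.44 to 2.44). Vgf, a secreted neuropeptide precursor, had 478 and 284 UMIs (1.67), and Scg2, a granin, 331 and 229 UMIs (1.44). Syt4 (1.36, 1.19 to 1.56) and Rasgrp1 (1.29, 1.14 to 1.47) were also higher. Within clusters Syt4 stood at 1.24 (1.09 to 1.42) and Rasgrp1 at 1.12 (0.989 to 1.26). Nptx1 (0.98), Sorcs3 (1.00), Nrn1 (0.94), Kcna1 (1.01) and Lingo1 (1.06) were nearly level.

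As a list, the machinery that couples calcium to these genes was close to level. All 34 genes listed for glutamate receptors, calcium signalling, CREB and SRF were tested. None passed 2-fold in either direction, beside 0.806% of all genes tested. They summed to 13947 CPM in the members and 13225 CPM in like-depth neurons, a ratio of 1.05 (1.04 to 1.07). Grin2a, an NMDA receptor subunit, had a ratio of 1.10, Camk2a, the main synaptic calcium-dependent kinase, 1.05, and Ppp3ca, the calcineurin catalytic subunit, 1.00. Single genes ranged from 0.66 to 1.46. Srf, named above, was the highest, with 72 UMIs in the members and 49 in like-depth neurons (1.46, 1.00 to 2.14, and 1.72 within clusters, 1.15 to 2.58). Mapk3, which encodes the kinase ERK1, had 46 and 69 UMIs (0.66, and 1.00 within clusters), and Cacna1c, the pore subunit of a voltage-gated calcium channel, 173 and 252 UMIs (0.68, 0.559 to 0.831, and 0.89 within clusters, 0.720 to 1.10). General neuronal markers had a ratio of 0.97.

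Several high genes were on no list. 1700016P03Rik (chromosome 11, 75172560 to 75177633, plus strand), a processed transcript in which the miR-212 and miR-132 genes lie on the same strand, had 72 UMIs in 58 members, against 9 UMIs in 9 like-depth neurons, a ratio of 7.95 (3.96 to 18.1). The miR-212/132 cluster is known as a CREB target in neurons. Its mature miRNAs are shown because this was the third of all genes by the ranking used; seeds (bases 2 to 8) are in capitals, from RefSeq (GRCm38.p6, chromosome 11, plus strand).
miR-212-3p: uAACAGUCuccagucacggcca
miR-132-3p: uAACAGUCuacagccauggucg
miR-212-5p: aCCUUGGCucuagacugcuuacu
miR-132-5p: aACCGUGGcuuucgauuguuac
The 3p miRNAs share their seed and the 5p miRNAs do not. Mature miRNAs have no poly(A) tail and were not measured here; the count is of the host transcript, and Ovca2 overlaps it on the opposite strand.

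Unlisted transcripts inside known activity genes were also high. AC120347.1 and AC120347.2 lie within Homer1 on its strand (chromosome 13, 93317427 to 93319065 and 93312041 to 93314055). AC120347.1 had 336 UMIs in the members and 81 in like-depth neurons (4.12, 3.22 to 5.32), and AC120347.2 had 43 and 11 UMIs (3.88). Homer1 itself, which encodes a postsynaptic scaffold and a short activity-induced form, had 487 and 291 UMIs, a ratio of 1.66 (1.44 to 1.93). The same held within Ntrk2, the gene of the BDNF receptor TrkB. AC159195.3, on its strand, had 67 UMIs in the members and 18 in like-depth neurons (3.70) and AC159195.1, on the opposite strand, 345 and 122 UMIs (2.81), where Ntrk2 had 1080 and 790 UMIs (1.36, 1.24 to 1.49). The sources used here do not give how strand and overlapping genes were counted, so reads of such pairs cannot be told apart with certainty. Ctgf, a secreted matrix protein, had 46 UMIs in 16 members, against 10 UMIs in 7 like-depth neurons (4.57, 2.28 to 10.2). Ctgf also led an unnamed cluster of 253 neurons, and its ratio was 11.2 (4.10 to 43.0) with pairs taken within clusters.

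Of the 12 lowest ratios, 4 belonged to haemoglobin genes, 1 to Ttr and 4 to genes of the GABAergic list. Gad1, which makes GABA, had 11 UMIs in the members and 59 in like-depth neurons (0.185, 0.0877 to 0.356), the vesicular GABA transporter Slc32a1 33 and 89 UMIs (0.368), and Sst 76 and 188 UMIs (0.402), with 49 of the 188 in 1 cell. Dlx6os1, an antisense transcript of interneurons, had 28 and 84 UMIs (0.331), and AC126673.2, inside Adarb2, 22 and 79 UMIs (0.277). The other two were on no list either. Col6a1, a collagen VI chain and a leading gene of the CA3-like cluster, had 92 UMIs in 54 members, against 220 UMIs in 99 like-depth neurons (0.415, 0.322 to 0.532), and its ratio was 0.457 (0.352 to 0.588) within clusters. C130073E24Rik, a long non-coding RNA, had 81 and 202 UMIs (0.398, and 0.769 within clusters, 0.567 to 1.04). The GABAergic list had a ratio of 0.46, with 6 of 9 tested genes at least 2-fold lower, beside 0.413% of all genes tested. The dentate list had a ratio of 0.71, the CA3 list 0.84 and the CA1 list 1.23. The dentate ratio was 0.926 (0.798 to 1.07) among cells with at least 2000 UMIs and 0.904 (0.795 to 1.03) with the Meg3 and Snhg11 limit at 2.5%, and both intervals include 1. In the makeup by cluster, 34.4% of the members were CA1-like, against 25.2% of like-depth neurons; 5.02% were dentate-like, against 12.9%; and 3.95% were GABAergic-like, against 8.87%. Haemoglobin and Ttr ratios rested on single cells: 2 of the like-depth neurons held 5205 of their 5273 haemoglobin UMIs and 1 held 1558 of 2197 Ttr UMIs.

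When each member was instead paired with a like-depth neuron of its own cluster, the class lists came close to level (dentate 1.00, CA1 1.00, CA3 1.01, GABAergic 1.11), and the early factors had a ratio of 2.36 (2.20 to 2.53), the effectors 1.87 (1.75 to 2.00) and the late genes 1.25 (1.19 to 1.30). Over the same 9921 genes, 40 (0.403%) were then at least 2-fold higher and 15 (0.151%) at least 2-fold lower, with 8 of the 14 tested early factors and 7 of the 15 tested effectors among the higher ones. Egr4 stood at 8.35, Btg2 at 5.55, Egr1 at 4.60, AC120347.1 at 2.74 and 1700016P03Rik at 3.91, while Gad1 stood at 0.41 and Sst at 1.09. The pairing within clusters was chosen after the data had been seen.

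The ratios were graded by how many UMIs of the 5 genes a cell had. The early factors had ratios to the paired like-depth neurons of 1.36 (1.23 to 1.499) in cells with 1 UMI, 3.33 with 2, 4.65 with 3 or 4, and 7.88 (6.24 to 10.1) with 5 or more. The effectors went through 1.30, 2.17, 2.96 and 4.44, and the late genes through 1.19, 1.22, 1.42 and 1.47. Btg2 reached 170 UMIs in the 77 cells with 5 or more, against 9 in their pairs (18.8), from 90 and 51 UMIs (1.75) in the 570 cells with 1. The calcium, CREB and SRF list stayed between 1.01 and 1.07, and the median depth between 2073 and 2312 UMIs. Members just inside the threshold, with 1 UMI, had 706 CPM of the early factors, against 520 CPM in their pairs with none. The next bins had 1202, 2108 and 3343 CPM, against 361, 454 and 424 CPM in their pairs. The pairs were thus highest for the bin with 1 UMI and lowest for the bin with 2. Part of the step from 1.36 to 3.33 therefore lies in the pairs. The heat shock list had ratios of 1.05, 1.06, 1.28 and 1.45 over the same bins and 1.11 over all members; its part in the result was not tested.

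**Figure D4:**
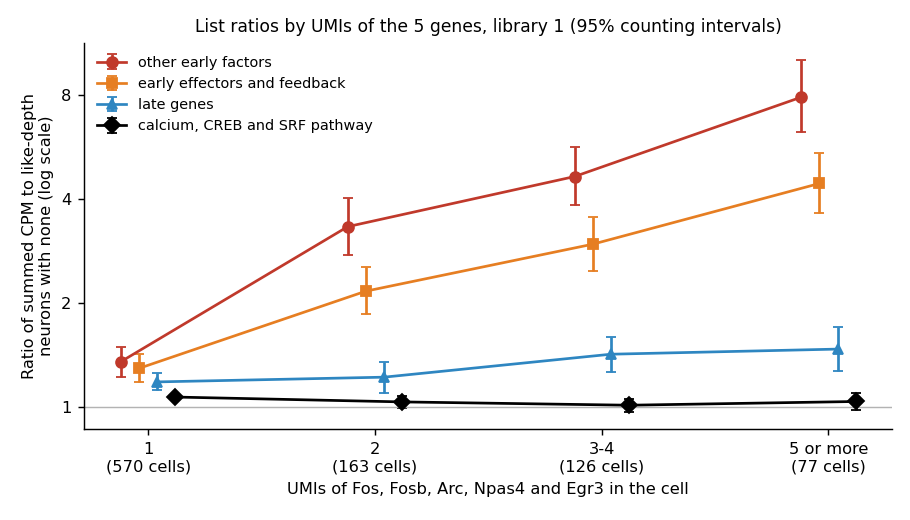
Ratio of summed CPM in members to their like-depth pairs (vertical axis, log scale) for 4 gene lists, by the number of UMIs of the 5 genes in the cell (horizontal axis, with the number of members); bars are 95% counting intervals. The early factor ratio runs from 1.36 to 7.88 while the calcium, CREB and SRF list lies between 1.01 and 1.07.

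The size differed with the gene a member carried. Neurons with Fosb had 3237 CPM of the other early factors, against 427 CPM in their like-depth pairs (7.57, 5.90 to 9.84), neurons with Fos 2422 and 482 CPM (5.03), with Egr3 1527 and 435 CPM (3.51), with Npas4 1682 and 487 CPM (3.45), and with Arc 1326 and 463 CPM (2.86, 2.61 to 3.14). These groups share cells. Among members with only 1 of the 5 genes the ratios were nearer to each other, with 2.09 (1.43 to 3.10) for Fos alone in 41 cells, 1.64 (1.45 to 1.86) for Arc alone in 356 cells, 1.59 (1.30 to 1.94) for Npas4 alone in 141 cells and 1.43 (1.15 to 1.77) for Egr3 alone in 129 cells. The intervals of these 4 groups overlap. For the effectors, Fos alone had a ratio of 2.49 (1.71 to 3.67), above the intervals of Arc alone (1.48, 1.32 to 1.67), Npas4 alone (1.39, 1.16 to 1.67) and Egr3 alone (1.29, 1.06 to 1.57). These intervals leave out variation among cells. Fosb alone, in 13 cells, had 26 UMIs of the early factors, against 11 in its pairs, and 22 UMIs of the effectors, against 22.

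Within the named classes the members were set against like-depth neurons of the same class. The early factor ratio was 2.62 (2.31 to 2.98) in CA1-like, 1.64 (1.30 to 2.07) in CA3-like, 1.68 (1.20 to 2.37) in dentate-like and 2.76 (1.83 to 4.27) in GABAergic-like cells. In the clusters led by glial markers it was 2.79 (1.79 to 4.49) for 23 members of the astrocyte-like and 1.92 (1.39 to 2.67) for 45 members of the oligodendrocyte-like one. The CA1-like and CA3-like intervals do not overlap, but they leave out variation among cells. The members of these classes were also unlike in depth and in level of the genes of the rule. The CA3-like members had a median of 3111 UMIs, against 2160 in the CA1-like members. They had 445 CPM of the genes of the rule, against 921 CPM. In the CA1-like and GABAergic-like classes pairs were not taken within clusters, whereas the CA3-like and dentate-like classes were each a single cluster. The 2 CA1-like clusters held members at 37.0% and 17.2%. The part of these differences in the ratios was not tested. For the effectors the ratios were 1.79 in CA1-like, 1.19 (0.979 to 1.44) in CA3-like, 2.19 in dentate-like and 1.96 in GABAergic-like cells, and 1.42 (0.911 to 2.24) in astrocyte-like and 2.02 in oligodendrocyte-like ones. Egr4 had 139 UMIs in CA1-like members, against 12 in like-depth CA1-like cells (11.5), and 20 UMIs in GABAergic-like members, against 1. Nr4a2 had 118 UMIs in CA1-like members, against 17 in like-depth cells (6.89), but 1 UMI in GABAergic-like members, against 1. Bdnf had 64 and 24 UMIs in the CA1-like sets (2.65) and 32 and 14 in the CA3-like sets (2.23), and none in the 37 GABAergic-like members, against 2 UMIs. Sst had 24 UMIs in GABAergic-like members, against 104 in their like-depth cells (0.222, 0.136 to 0.348). These sets differ by cluster: 25 of the 37 members lay in the cluster led by Zic1 and Prkcd, and the one led by Dlx6os1, Adarb2 and Sst held the other 12. With pairs taken within clusters, Sst over all members stood at 1.09 (0.777 to 1.54).

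**Figure D5:**
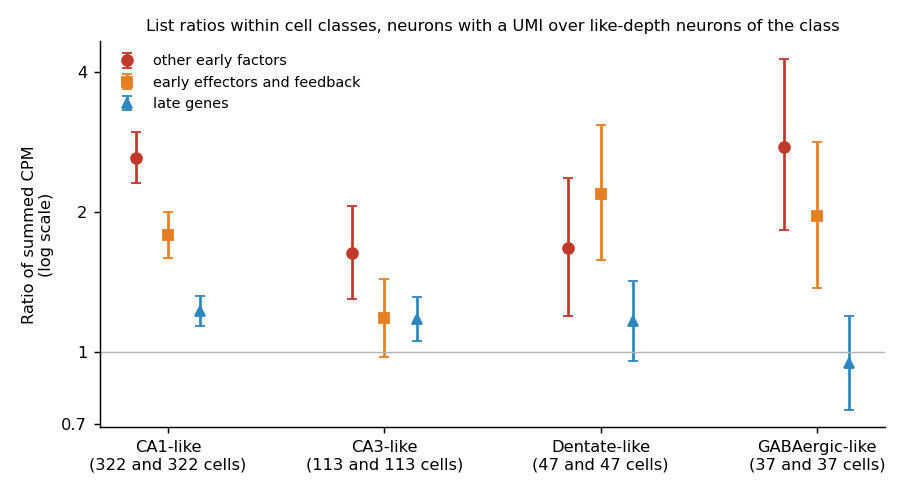
Ratio of summed CPM (vertical axis, log scale) in members to like-depth neurons of the same class, for 3 gene lists in 4 classes (horizontal axis, with the number of cells in each set); bars are 95% counting intervals. The early factor ratio is 2.62 in CA1-like and 1.64 in CA3-like cells.

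Markers of other cell types were present in both sets, and 661 of the 936 members and 3080 of the 4284 neurons had 3 or more UMIs of the astrocyte, oligodendrocyte, oligodendrocyte precursor, microglial and endothelial lists together. Without these cells the interval of the early factor ratio was 2.19 to 2.86 and the effector ratio was 2.22. The astrocyte list summed to 684 CPM in the members and 902 CPM in like-depth neurons, against 16709 CPM in the astrocyte gate, and the oligodendrocyte list to 1062 and 1127 CPM, against 36919 CPM in the oligodendrocyte gate. Of 10 microglial markers, 7 had UMIs in the members, for 170 CPM, against 159 CPM in like-depth neurons; P2ry12, Cx3cr1 and Csf1r were at 0 by the rule, which had removed 301 barcodes, 70 of them with a UMI of the 5 genes. The nuclear RNA list, mostly Malat1, had a ratio of 1.08, and the median mitochondrial share was 0.739% in the members and 0.838% in like-depth neurons. The part of the nuclear and mitochondrial differences in the results was not tested. The 2 libraries shared 19 barcode sequences, none of them a member's.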

How the data were processed

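Libraries of dissociated hippocampal cells were sequenced with a 3′ single-cell kit, per the labels' protocols. The authors deposited unnormalized whole-number UMI counts for 41605 genes in every barcode. Cell Ranger 3.0.1 and GRCm38.p5 are named in the submitters' processing notes; the sources used here do not say how reads were assigned to strands and overlapping genes. Library 1 held 18783691 UMIs, with a median of 1256 per barcode, and library 2 held 29356086, with a median of 1600.5.

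The members and gene lists were chosen with earlier results of these data known. In library 1, 7664 barcodes passed the UMI limit, 7627 also the gene limit, 7209 the mitochondrial limit and 4585 the Meg3 and Snhg11 limit; the microglial criterion removed 301. Members were paired with neurons of nearest UMI total, deepest first, each used once. Counts were summed over cells and divided by the set's total (CPM). All intervals are exact 95% intervals (scipy 1.17.1): Clopper-Pearson for shares, conditional binomial for ratios, Poisson for counts. UMIs remove PCR copies, and an interval covers only counting error, leaving out variation among animals and preparations. For ratios and CPM the UMIs of all cells in a set were pooled, so variation among cells is left out too. The fold used to count genes was taken on CPM plus 1, for genes with at least 50 UMIs in both sets together, without the 5 rule genes and the 5 gate genes; with 1 library no test or p-value was possible. Expected shares at 1000 UMIs follow the hypergeometric formula. Glial gates took barcodes that passed the UMI, gene and mitochondrial limits, lay under the Meg3 and Snhg11 limit and had at least 10 UMIs of a marker list, at least 2 times those of any other glial list.

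Gated neurons were clustered with scanpy 1.11.5 (2000 variable genes, 30 components, 15 neighbours, Leiden resolution 1), without activity, stress, mitochondrial, ribosomal protein, haemoglobin and gate genes. A marker was raised at 20 CPM or more and at least 2 times the mean of the other clusters, with 10 CPM added to both. A cluster was named with at least 3 raised markers of its class, at least 2 times as many as of any other list, and more markers of its class than of any other among its top 10 genes by fold. These thresholds were set after the clusters were seen, and 10 of 18 stayed unnamed, one of them of 238 neurons with 3 raised CA1 markers but none in its top 10. Doublets were kept; Scrublet marked 12.8% of all barcodes and 706 of the neurons, 162 of them members, which were left out in an alternative.

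List genes qualified for naming among the 8 or fewer most abundant in the members, or past 2-fold with at least 20 UMIs in both sets. Of all genes, the 12 highest and 12 lowest ratios by the interval bound nearest 1 were taken. Not every list gene that qualified is named, with Mcl1, Fbxo33 and Grin1 among those left out. Others on the lists were named after their values were seen. Positions and overlaps come from GENCODE vM21, which held 41435 of the 41605 gene IDs. Promoter and miRNA sequences come from RefSeq tables; Arc and Egr3 were not matched there. The interval and counting steps were tested on simulated counts. These were independent Poisson draws per gene without variation among cells, so the test checks the calculation and not the coverage in these data.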

Additional observations from a re-analysis of the deposited data

Results flagged for a closer look

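Library 2, which entered no comparison, had 22 barcodes that met the same neuron criteria, and 5 of these had a UMI of the 5 genes (22.7%, exact binomial 95% interval 7.82 to 45.4%). They are listed because RNA of the 5 genes was found in cells that the comparisons leave out, and the interval is too wide to order this share against that of library 1. They held 3 UMIs of Npas4 in 3 cells, 2 of Egr3 in 2 cells and 1 of Fosb in 1 cell, and none of Arc or Fos. Fewer than 50 cells were left for a comparison with like-depth neurons, and none was made.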

How the results depend on the processing

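Against the reported early factor ratio of 2.56, effector ratio of 1.96 and late gene ratio of 1.25, the 18 alternatives gave ranges of 2.35 to 4.44, 1.82 to 2.77 and 1.21 to 1.34, all above 1. Values outside the counting interval were, for early factors, 2.35 with at least 2000 UMIs per cell, 4.44 with at least 2 UMIs of the 5 genes, 2.78 without Scrublet doublets, 3.09 without Arc in the rule and 2.36 with pairs from the same cluster. For effectors they were 1.82 at 2000 UMIs, 2.77 with at least 2 UMIs, 2.22 without the 3080 neurons that had 3 or more glial or endothelial UMIs and 2.22 without Arc, and for late genes 1.34 with at least 2 UMIs. The 80 of 9921 genes past 2-fold became 133 of 12123 against all neurons with no UMI of the 5 genes. With up to 3 neurons per member they became 123 of 11892. They were 31 of 9921 with 10 CPM added, 240 of 12722 from 20 UMIs and 1079 of 21527 with no UMI minimum. Within clusters they were 51 of 9831 genes with 50 UMIs in those sets. The higher genes made up 48.8% of the 80, 20.3% of the 133 and 68.6% of the 51. The share of neurons, 21.8%, was 13.5% at 1000 UMIs, 30.2% from 2000 UMIs, 23.7% with Meg3 and Snhg11 at 2.5%, 8.54% for 2 UMIs, and 14.8%, 19.2% and 19.4% without Arc, Npas4 or Egr3 in the rule. For the shares without a gene, neurons that carried only that gene of the 5 were left out of the neurons counted. Within clusters the CA3 list turned to 1.01 (0.929 to 1.10) and the GABAergic list to 1.11 (0.970 to 1.27), and both intervals include 1. Pairing within clusters holds the cluster makeup equal by design, and no other cause was tested. Pairing within clusters and leaving out glia-led clusters or the 3 cells with over 250 haemoglobin or Ttr UMIs were chosen after seeing the data. No paired analysis was possible because each library is a single pool and no groups were assigned. Depth limits detection: 570 members rest on 1 UMI.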
